A study of Brassica rapa subsp. rapa with 9 samples.

Results

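PRXR1 is the name of a plant peroxidase that 29 of the 2507 tested probes carried on an array hybridised with turnip RNA, in 62 of 5299 spots. Members were all probes with a deposited spot weight of 1 whose annotation ended in this name, and the name is that of the Arabidopsis gene in the deposited annotation of each probe. The gene was chosen with its UV-B values known, so every PRXR1 value from the UV-B arrays is a description. Counts of UV-B calls among its probes are given, but nothing is read from them. Across the 29 probes the median of log2(light/dark) was 0.39 in blue light, 0.41 in UV-A and -2.37 in UV-B, each probe being a mean of 3 arrays. Positive values mean more RNA in the exposed sample than in the dark sample of the same array.

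PRXR1 belongs to the class III peroxidases, a large family of secreted haem enzymes of plants that oxidise phenolic compounds with hydrogen peroxide. Members of the family join lignin precursors and cross-link proteins of the cell wall, which stiffens it, and some also generate reactive oxygen species during defence. The enzymes that make or remove hydrogen peroxide handle the same molecule, but not necessarily in the same place. None of the sources used here ties an individual turnip peroxidase to one of these roles.

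The study asked how blue light, UV-A and UV-B change gene expression in the swollen hypocotyl, the storage organ, of the red turnip Tsuda (Brassica rapa subsp. rapa). Organs were exposed to 1 of the 3 lights for 24 hours, or kept dark, and polyA RNA was taken from a thin peeled surface layer. Each of the 9 arrays carried an exposed sample labelled with Cy3 and a dark sample labelled with Cy5, with 3 biological replicates per light, RNA of several plants in each and no dye swap. The labels give no genotype beyond the cultivar, no plant age and no light intensity, and groups follow the titles, since the descriptions mention blue light for every one of the 9 samples. A log ratio against dark includes the dye bias of its probe, whereas a difference between lights does not. Fewer cells of a type and less RNA per cell cannot be told apart in such bulk tissue.

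The arrays differed in brightness. Light-channel foreground was a median of 3.57 times its background on the weakest array, UV-B replicate 1, and 65.8 times on the strongest, UV-A replicate 2. The dark channel ranged from 9.17 to 36.9 times. The median log ratio of all probes stayed between -0.03 and 0.02 on every array, so PRXR1 values below are set against a centre close to 0. The sources used here do not say what the probes are made of or how they were annotated, and no probe sequence was used. Whether the 29 probes measure 1 turnip gene or several was not tested, and no turnip coordinates are given.

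In UV-B the PRXR1 signal lay far below that of the dark sample on every array. The median over the 29 probes was -2.22 on UV-B replicate 1, -1.45 on replicate 2 and -3.13 on replicate 3, which correspond to a dark signal 4.67, 2.72 and 8.76 times the light signal. On each of these 3 arrays 27 of the 29 probes were below 0. The blue arrays had medians of 0.06, 0.82 and 0.31, and the UV-A arrays -0.07, 0.94 and 0.63. All UV-B medians were thus below all medians of the other lights, and blue and UV-A overlapped. The mean of the array medians was -2.27 ± 0.843 in UV-B, 0.40 ± 0.387 in blue light and 0.50 ± 0.516 in UV-A (SD, n = 3 each).

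All 3 UV-B arrays were below 0 for 25 of 29 PRXR1 probes, against 27.3% of all tested probes, and below all 6 other arrays for 21 of 29, against 11.4%. A UV-B mean under -1 was reached by 26 PRXR1 probes (15.4% of all tested probes), one under -2 by 17 (4.95%) and one under -3 by 9 (1.68%). By limma with Benjamini-Hochberg adjustment over all 2507 probes at 0.05, 24 of 29 were called lower in UV-B, against 13.9% of all probes, and 0 were called higher, against 10.8%. Since the gene was chosen on this contrast, nothing is read from these shares. The 5 probes not called lower were 861, 1910, 43, 567 and 2267.

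Probe 1303 had the lowest UV-B mean. Its values were -4.84, -3.66 and -4.20 in UV-B, where the dark sample gave 18.8 times the light signal on average, against -0.30, 0.84 and 0.31 in blue light and -0.01, 0.94 and 0.82 in UV-A. Probe 2781 had UV-B values of -4.87, -4.01 and -3.30, a mean of -4.06 ± 0.784 (SD, n = 3). For both probes every UV-B array was below -3 as a mean over spots, and the other 6 arrays were far above that. On UV-B replicate 2 the 2 spots of probe 1303 differed by 2.82, and 1 of them had a saturated dark signal. Without that spot, probe 1303 was above -3 on that array. Probe 1303 has 3 saturated light spots and 1 saturated dark spot, so its size and place are not exact. Probe 2781 has 2 saturated light spots, none of them on a UV-B array, and its UV-B mean was the same without them. With saturated spots left out, the UV-B mean of probe 1303 was -3.76, a dark signal 13.6 times the light signal and the 6th lowest, and probe 1468 was the lowest with -4.08.

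At the other end, probe 2267 had UV-B values of 0.40, -0.61 and 0.19 and a mean of -0.01. Probe 567 had 0.27, -1.31 and 0.31, with a mean of -0.24. For both, the UV-B arrays fell on either side of 0 and overlapped those of the other lights. UV-B means of PRXR1 therefore ran from -4.23 to -0.01 among probes of 1 name.

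The brightest and the dimmest probe show what these ratios rest on, as means over the spots of a probe. Probe 451, the brightest with a mean log2 signal of 14.7, had light foreground intensities of 22972, 65535 and 59882 on the blue arrays and 24744, 57460 and 65535 on the UV-A arrays. On the UV-B arrays they were 3216, 5912 and 9416, while its dark foreground there was 24264, 43900 and 65535. The light channel of this probe was thus lower on every UV-B array than on any other, and its dark channel was not. Its normalized UV-B values were -3.54, -2.84 and -2.75.

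Probe 43, the dimmest with a mean log2 signal of 8.08, had light foreground intensities of 422, 658 and 412 in UV-B over backgrounds of 522, 294 and 160. Its UV-B values were -0.85, 0.37 and -1.53. They fell on both sides of 0, and on UV-B replicate 1 its light foreground was under the local background.

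The value 65535 is the top of the intensity scale, and 15 of the 29 PRXR1 probes reached it in at least 1 spot. Saturated light spots numbered 11 on blue replicate 2, 4 on blue replicate 3, 10 on UV-A replicate 2 and 12 on UV-A replicate 3, with 0 on the other 5 arrays. Saturated dark spots numbered 7 on UV-A replicate 3, 5 on UV-B replicate 2 and 12 on UV-B replicate 3, with 0 on the other 6. Saturation thus touched the light channel in blue light and UV-A, and the dark channel on UV-A replicate 3. In UV-B it touched only the dark channel. The sizes of these log ratios are therefore not exact. On UV-A replicate 3 probes 1819 and 2658 had a foreground of 65535 in both channels. Their values there, 0.085 each, are set by the top of the scale and do not measure a difference, but they enter the UV-A means.

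The 15 probes are 1303, 2781, 1468, 1070, 2612, 1523, 1121, 1970, 451, 2658, 1819, 94, 467, 760 and 2793. They had a median UV-B mean of -3.59, and the 14 probes without a saturated spot had -1.57. Over these 14 probes the UV-B means ran from -2.82 to -0.01. At the dim end, 5 probes (1438, 1830, 861, 43 and 2267) had no light spot at 1.5 times the background on UV-B replicate 1, and no PRXR1 probe lacked such a spot on all 3 UV-B arrays.

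Read by channel, the difference lay in the light sample for most probes. After scaling the channels between arrays, the median PRXR1 light intensity was 10.7, 10.9 and 11.2 (log2) on the UV-B arrays and between 13.8 and 14.6 on the other 6. The dark intensity was 13.9, 13.2 and 14.6 on the UV-B arrays and between 13.2 and 14.1 on the others. Per probe, the UV-B arrays differed from the mean of the other 6 by a median of -2.67 in the light channel and 0.06 in the dark channel. Over all tested probes these medians were 0.11 and 0.10. The light channel was lower by over 1 for 27 of 29 PRXR1 probes, against 455 of all 2507 tested probes. The dark channel was higher by over 1 for 2 of 29, against 80 of 2507. By any amount, the dark channel was higher for 15 of 29, against 1412 of 2507, and lower for the rest. Its lowest differences were those of probes 567 and 861, both among the 27, with -2.11 and -1.33.

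Blue light gave no PRXR1 call against dark. Of 29 probes 0 were called lower, against 2.35% of all tested probes, and 0 higher, against 1.12%, and the smallest limma adjusted p was 0.162. At an unadjusted p under 0.05 there were 1 lower and 5 higher, against 13.7% and 11.5% of all tested probes. With the replicate number as a block 0 of 29 probes were called in either direction, against 404 of all 2507. Probe means ran from -0.999 to 0.999 with a median of 0.39, at the 72.5th percentile of all probes, and limma's standard errors from 0.284 to 0.635. These errors rest on a spread shared by all lights, so the UV-B arrays enter the tests in blue light and UV-A. The median SD of a PRXR1 probe over arrays was 0.784 in UV-B, 0.649 in blue light and 0.571 in UV-A.

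The highest blue mean was that of probe 1121, with values of -0.22, 0.92 and 2.30 (log2 0.999 ± 0.436 SE, limma adjusted p = 0.185). Probe 1830 followed with -0.05, 1.03 and 1.91 (adjusted p = 0.199 by limma). For both, replicate 1 was at or below 0 and replicate 3 was the highest. The lowest was probe 43 with -0.12, -0.76 and -2.12 (limma adjusted p = 0.162), followed by probe 861 with 0.91, -0.97 and -2.23. All 3 blue arrays were above 0 for 4 PRXR1 probes (19.7% of all tested probes) and below 0 for 1 (21.1%). Without blue replicate 2 the median over probes was 0.04.

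UV-A gave no call either, with 0 probes lower (2.07% of all tested probes), 0 higher (1.12%) and a smallest limma adjusted p of 0.120. At an unadjusted p under 0.05 there were 0 lower and 3 higher, against 11.4% and 9.01% of all tested probes. With the replicate number as a block, which the arrays' shared deviations bear out, 2 of 29 probes were called higher, against 4.59% of all tested probes, and 0 lower, against 6.54%. Probe 1523 had UV-A values of 0.27, 1.26 and 1.05, and its limma adjusted p was 0.0364 with the replicate block, 0.120 without it and up to 0.442 over the alternatives. Probe 1970, which has 4 spots, had 0.36, 1.496 and 0.89, and its limma adjusted p was 0.0366 with the replicate block, 0.126 without it and up to 0.486 over the alternatives. Both probes were above 0 on all 3 UV-A arrays.

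Probe 1970 had the highest UV-A mean (0.91) and probe 1121 the next (0.89). The lowest were probes 861, with -1.14, -0.82 and -0.86, and 43, with -0.28, -0.89 and -0.73. These 2 dim probes were below 0 on every UV-A array, and they are the only PRXR1 probes for which that held (26.0% of all tested probes). All 3 UV-A arrays were above 0 for 7 probes (24.1%). Values above 0 on both blue replicate 2 and UV-A replicate 2 occurred in 24 PRXR1 probes (35.3% of all tested probes). These arrays had the highest PRXR1 medians of their lights, 0.82 and 0.94, and deviated together over all probes (r = 0.622). Nothing is therefore read from that count. Without UV-A replicate 2 the median over probes was 0.27.

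Between UV-A and blue light no PRXR1 probe was called by limma. The count was 0 in each direction, against 0% of all tested probes, with a smallest limma adjusted p of 0.952, so nothing about PRXR1 is read from it. At an unadjusted p under 0.05 there were 0 PRXR1 probes, and 40 lower and 40 higher among all probes. The median difference was 0.10 and the probe values ran from -0.54 to 0.87, with standard errors of 0.402 to 0.898. The median turned to -0.09 without blue replicate 1 and to -0.08 without UV-A replicate 2. The UV-A arrays were all above the blue arrays for 0 of 29 probes (5.03% of all tested probes) and all below for 0 (4.31%).

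Against the other lights, in which dye bias cancels, the UV-B values stayed low. The median difference from blue light was -2.74 and that from UV-A was -2.70. These comparisons share the UV-B arrays with each other. Of 29 probes, 23 were called lower in UV-B than in blue light (10.3% of all tested probes) and 19 lower than in UV-A (4.59%), with 0 higher in either (8.06% and 2.03%). The first count was 15 without blue replicate 2, 15 when UV-B replicate 1 was left out and 14 for UV-B replicate 3. All UV-B arrays were below all blue arrays for 21 probes (17.4%) and below all UV-A arrays for 24 (15.5%). Since PRXR1 was chosen on its UV-B values, nothing is read from these counts.

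The probes of this name did not move as a block within an array. On UV-B replicate 2 they spread from -4.02 to 0.37, and the order there went with their sign on blue replicate 3, a split noticed after the values were seen and therefore not tested. The 16 probes above 0 on blue replicate 3 had a median of -3.48 on UV-B replicate 2 (-4.02 to -1.18), and the 13 below 0 had -0.70 (-1.66 to 0.37). On UV-B replicate 3 the same sets had medians of -2.94 and -3.31, and on UV-B replicate 1 of -3.60 and -1.62. The first set was thus the lower on UV-B replicates 1 and 2 but not on replicate 3.

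In the authors' deposited table the sets had medians of -2.87 and -0.38 on UV-B replicate 2 and did not overlap there. On blue replicate 3, whose sign in the normalized values defines the sets, they did overlap in the authors' deposited table, with 0.515 to 2.29 for the first and -0.587 to 0.819 for the second. By print-tip loess the second set reached 0.552 on that array, so the sign alone did not divide the probes, and the first set began at 0.590. The Pearson correlation of the 2 arrays was -0.767 over the 29 probes and -0.190 over all 2507, given as a description of probes that share the same hybridisations. Probes of both sets occurred together in 4 of the 14 print blocks that hold PRXR1. The block with the most PRXR1 probes held 2 of the first set and 4 of the second. Whether the sets are different genes was not tested.

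Spots of the same probe bound how finely single values can be read. For the 27 PRXR1 probes with 2 spots, the median absolute difference between spots was 0.27, 0.55 and 0.30 on the UV-B arrays, and between 0.09 and 0.69 on the others. The widest was 2.82, for probe 1303 on UV-B replicate 2, where 1 of its 2 spots had a saturated dark signal. Probe 2658, with 4 spots, had UV-B replicate 2 values of -0.34, 0.11, -1.16 and -1.40 but -4.16, -3.86, -4.14 and -4.65 on replicate 3. The distance between these 2 arrays was larger than the spread of its spots. For probe 94, which had a similar course, the UV-B values were -3.13, 0.17 and -4.16.

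The UV-B means of the 29 probes were lower for brighter probes (Pearson r = -0.538 with mean log2 signal), and blue and UV-A means were higher for them (0.628 and 0.548). These correlations describe probes that share all 9 arrays, and dim spots lie close to the background. Blue and UV-A means correlated at 0.827 over the 29 probes and at 0.713 over all tested probes.

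Among the names with at least 10 probes, PRXR1 had the lowest UV-B median. AT3G14210 followed with -2.01 over 28 probes, of which 22 were called lower and 1 higher. AT1G04040 had -1.76 over 11 probes and AT1G54020 -1.66 over 33. PRXR1 was 4th of these names by the standard deviation of UV-B means over probes (1.19). These places rest on the contrast by which PRXR1 was chosen and are a description.

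The course of PRXR1 over the 9 arrays was compared with that of 998 other Arabidopsis names, each by its brightest probe. The smallest root mean square difference from the PRXR1 array medians was that of AT5G59910, annotated as DNA binding (0.332, Pearson r = 0.982, UV-B mean -2.54). AT5G51550 (0.404, r = 0.958), AT2G33830 (0.417, r = 0.955) and AT1G04910 (0.452, r = 0.969), all annotated as unknown proteins, came next. The fifth was AT4G20430, annotated as a subtilase, a class of protein-cutting enzymes (0.459, r = 0.968). Their UV-B means lay between -2.54 and -1.82. AT5G59910 had 9 saturated spots, and its other probe had a UV-B value of -0.42. The other probe of AT4G20430 had -0.55, and neither was called lower. Other probes of AT5G51550 ran from -1.32 to 0.35 and those of AT2G33830 from -1.93 to -0.92, with 1 called lower for each name. AT1G04910 had 1 probe. The UV-B arrays by which PRXR1 was chosen enter these differences and correlations, which are therefore a description.

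The array held 5 other peroxidase names in 12 probes. Each name was read at its brightest probe, and counts of names are set against the shares of all 999 Arabidopsis names so read. Of the 5 names, 0 were called lower in UV-B (11.2% of all names) and 1 was called higher (13.01%), and their median was 0.04, beside 0.14 over all names. AT3G49110 had UV-B values of 0.90, 0.40 and 1.34, all above 0, and rose 1.84-fold (log2 0.88 ± 0.294 SE, limma adjusted p = 0.0476). Its limma adjusted p was between 0.0524 and 0.0630 without blue replicate 1 or 2 or any 1 UV-A array, 0.163 when UV-B replicate 1 was left out and 0.272 for UV-B replicate 3, within a range of 0.0151 to 0.272 over 18 alternatives. The call held in 8 of the 18. It was lost with median centring (limma adjusted p = 0.0957), print-tip loess (0.223) and the authors' values (0.0746).

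PRXCB, in Arabidopsis 1 of the peroxidases behind the oxidative burst of defence, had 0.73, 0.47 and 1.07 (mean log2 0.76, limma adjusted p = 0.0543). AT5G06730 had a UV-B mean of 0.04, AT5G64120 of -0.09 and AT5G58390 of -0.02. In blue light AT5G58390 fell by 1.38 ± 0.318 (log2, limma adjusted p = 0.0447), with all blue arrays below 0 at -0.86, -1.15 and -2.12. Its limma adjusted p was 0.0506 without blue replicate 1, 0.101 without blue replicate 2, 0.281 without blue replicate 3, 0.0612 to 0.0763 without any 1 UV-A array and 0.0665 without UV-B replicate 1, within 0.0177 to 0.281 over 18 alternatives. In blue light 1 of the 5 names was thus called lower (2.20% of all names) and 0 higher (0.901%). In UV-A 0 were called lower (0.701%) and 0 higher (1.00%), but with the replicate block AT5G58390 passed there too (log2 -1.07, limma adjusted p = 0.0477, up to 0.353 over the alternatives). That block also called PRXCB higher in UV-B and AT5G64120 higher in blue light. No test set PRXR1 against these genes.

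Genes for enzymes that handle hydrogen peroxide or superoxide were described beside PRXR1. Of 10 names for the removal of hydrogen peroxide and superoxide, 2 rose in UV-B (13.01% of all names) and 0 fell (11.2%). In blue light and UV-A 0 passed, against 2.20% lower and 0.901% higher of all names in blue light and 0.701% and 1.00% in UV-A. CSD1, a superoxide dismutase that turns superoxide into hydrogen peroxide, had UV-B values of 1.98, 1.85 and 3.15 and rose 5.01-fold (log2 2.33 ± 0.307 SE, limma adjusted p = 0.000351). APX1, an ascorbate peroxidase that removes hydrogen peroxide, had 0.89, 2.04 and 1.08 and rose 2.52-fold (limma adjusted p = 0.00473). Both were above 0 on all 9 arrays. The 2 other probes of CSD1 had UV-B means of 0.02 and 1.87, of which 1 was called higher, and with spot weights ignored CSD1 had 1.56. The other probe of APX1 had 1.72 and was called higher, and without UV-B replicate 2 APX1 had 0.98. With the replicate block CSD1 also passed in blue light (limma adjusted p = 0.0426, up to 0.519 over the alternatives) and in UV-A (0.0170, up to 0.332), and APX1 in UV-A (0.0301, up to 0.268). Over all names that block called 5.71% higher and 8.81% lower in blue light, and 5.01% higher and 4.30% lower in UV-A. RBOHD, an oxidase that feeds superoxide into the wall space, was the 1 measured name of the list for hydrogen peroxide formation and did not pass in any light, with a UV-B mean of 0.15.

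Of 3 phenylpropanoid and lignin names, 1 rose in UV-B (13.01% of all names), 0 fell (11.2%), and 0 passed in blue light (2.20% lower, 0.901% higher) or UV-A (0.701% and 1.00%). PAL1, the entry enzyme of the pathway that supplies the phenolic substrates, had UV-B values of 1.12, 1.71 and 2.20 and rose 3.19-fold (log2 1.68 ± 0.273 SE, limma adjusted p = 0.00132). With the replicate block PAL1 also passed in UV-A (limma adjusted p = 0.0328, up to 0.328 over the alternatives), and CYP98A3, a hydroxylase of the same pathway, was called higher in blue light and UV-A.

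Of 14 names for wall proteins and wall loosening, 2 fell in UV-B (11.2% of all names), 0 rose (13.01%), and 0 passed in blue light (2.20% lower, 0.901% higher) or UV-A (0.701% and 1.00%). With the replicate block 3 fell and 1 rose in UV-B, 1 rose in blue light, and 2 fell and 1 rose in UV-A. EXGT-A1, a xyloglucan-joining enzyme, had -1.30, -3.32 and -3.74 and fell by 2.79 ± 0.537 (log2, limma adjusted p = 0.00322), while its 2 other probes had -0.02 and 0.08. Its UV-B mean was -3.53 without UV-B replicate 1, -4.82 with plain subtraction and -1.58 with the authors' values, and its limma adjusted p ran from 6.26e-05 to 0.0421 over 17 alternatives, the strict filter not testing it. In UV-A EXGT-A1 had a log2 mean of -2.04, with a limma adjusted p of 0.0632, of 0.00858 with the replicate block and of up to 0.359 over the alternatives.

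AT5G62360, annotated as a pectinesterase inhibitor, had UV-B values of -1.62, 0.33 and -3.08 and fell by 1.46 ± 0.486 (log2, limma adjusted p = 0.0472). Its arrays lay on both sides of 0. The limma adjusted p was 0.412 when UV-B replicate 3 was left out, 0.179 for UV-B replicate 1, 0.0595 and 0.0570 without blue replicate 1 or 2, and 0.0585 to 0.0648 without any 1 UV-A array, within 0.00257 to 0.412 over 18 alternatives.

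Markers of cell types that a peeled layer could hold were few. For green tissue 2 names were measured, of which 1 rose in blue light (0.901% of all names), 1 rose in UV-B (13.01%) and 0 fell in any light. LHCB2.1, a chlorophyll-binding protein, was the call in blue light (log2 1.24 ± 0.304 SE, limma adjusted p = 0.0494). It was lost in 13 of 18 alternatives, with a limma adjusted p of 0.0571 to 0.281 without any 1 array other than UV-B replicate 3. RCA, the Rubisco activase, was the call in UV-B (log2 0.87 ± 0.260 SE, limma adjusted p = 0.0307). Its limma adjusted p was 0.0539 without UV-A replicate 1 and 0.0719 to 0.129 without any 1 UV-B array.

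For anthocyanin-forming skin 4 names were measured, of which 2 rose in UV-A (1.00% of all names), 1 rose in UV-B (13.01%) and 0 fell in any light. CHS, chalcone synthase, rose in UV-A (log2 1.84 ± 0.448 SE, limma adjusted p = 0.0483) and was called in 8 of 18 alternatives, with 0.253 without UV-A replicate 2, 0.267 without UV-A replicate 3 and 0.0558 to 0.0767 when blue replicate 1 or 2, UV-A replicate 1 or UV-B replicate 1 or 2 was left out. With the replicate block CHS also passed in blue light (limma adjusted p = 0.0120, up to 0.530 over the alternatives), and LDOX, another enzyme of anthocyanin synthesis, was called lower in UV-B. These calls are of the brightest probe, at which CHS had a UV-B mean of 0.49 and was not called. The 6 other CHS probes had UV-B means from -0.08 to 2.31, and 4 of them were called higher.

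F3H, a flavanone hydroxylase, rose in UV-A (log2 1.70 ± 0.3002 SE, limma adjusted p = 0.0138), with 0.0762 to 0.124 without any 1 UV-A array. In UV-B it was the 1 call (log2 0.97 ± 0.3002 SE, limma adjusted p = 0.0357), with 0.0582 without UV-A replicate 1, 0.0527 without UV-A replicate 3, 0.255 when UV-B replicate 1 was left out and 0.149 for UV-B replicate 3. Median centring also ended the UV-B calls of RCA and F3H, with limma adjusted p of 0.0614 and 0.0535. These 4 marker genes were named after their values were seen. For epidermis and cuticle CER3 was the 1 name, and it did not pass. Its probe is annotated as a ubiquitin-protein ligase, and whether it marks the cuticle was not tested. For xylem and secondary wall no name was measured. The part of tissue makeup in the PRXR1 values was not tested.

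A further 2 PRXR1 probes, 137 and 677, had a spot weight of 0 and were left out. Their light channel reached 1.5 times the background on 5 of 9 arrays and their dark channel on 4. Probe 137 had UV-B values of 0.16, -0.41 and -1.24, and probe 677 had 0.12, 0.23 and 0.77. These probes lay close to the background.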

How the data were processed

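Gene expression was measured on 9 arrays with 2 channels. The deposited array files hold linear foreground and background intensity values for each channel, not normalized by the authors, and a spot weight of 0 or 1, a score the authors deposited without a stated meaning. Scanner, software, probe type and annotation method: not stated in these sources. Each array held 6272 spots, of which 5300 had weight 1, and 1 of these carried no probe number.

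Background was corrected with limma's normexp (offset 50), log ratios were normalized by loess within arrays, and spots of a probe were averaged (R 4.3.3, limma 3.58.1). Probes needed a foreground of 1.5 times the background in 1 channel on 3 arrays, which removed 0. For channel levels, intensities were scaled between arrays on mean log2 signal (Aquantile). A single limma fit to the 9 arrays gave each light its mean and all lights a shared spread, with two-sided tests adjusted by Benjamini-Hochberg over 2507 probes at 0.05. Only the limma fit was tested on simulated data, with log ratios whose errors were independent between arrays. The steps before the fit were not tested in this way. Precision is limited by 3 arrays per light, and dark samples were not given a spread of their own.

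The deposited table of log2 values, which the authors processed in an unstated way, served as an alternative. Against log2(light/dark) its columns gave r of -0.963 to -0.854, and they had means of 0 and medians from -0.165 to 0.047, and so ran as dark over light, opposite to the direction printed here. Its sign was turned. Its scale beyond log2 is not known. The authors' 3 split-control dark arrays for dye bias were not analysed here.

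Arrays of the same replicate number in different lights deviated together (r = 0.105 to 0.622 for every pair, against -0.625 to 0.059 for different numbers). The replicate block therefore took the numbers to pair the arrays, from these correlations and not from the labels. The main fit had no replicate term and ignored this pairing. Whether lights of a number shared their dark RNA is not stated.

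The members and the 9 gene lists were chosen with earlier results of these data known. Names with an Arabidopsis match (999 names, 2111 probes) were represented by their brightest probe. Names of other organisms were removed, and a formate dehydrogenase was taken off the cuticle list, after the annotation was read. The text names the brightest and the dimmest PRXR1 probe, those at either end in each light and those with a saturated spot. It names list members that passed, up to 3 per comparison, or the brightest where none passed, with marker lists given as counts, and the 5 names most like PRXR1. Beyond this rule it names the probes not called in UV-B, other PRXR1 probes, and further peroxidases, list members and often sampled names, chosen after their values were seen. Alternatives were plain background subtraction, median centring, print-tip loess, spot weights ignored, saturated spots left out, a strict filter, no filter, the authors' values, a replicate block and each array left out.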

Additional observations from a re-analysis of the deposited data

Results flagged for a closer look

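The array medians of PRXR1 were above 0 on all 3 blue arrays and below 0 on all 3 UV-B arrays, with a mean difference, UV-B minus blue, of -2.67 on the log2 scale. This opposition was not tested, since the gene was chosen on its UV-B values. Single probes above 0 on all blue arrays and below 0 on all UV-B arrays numbered 4 of 29, against 5.98% of all tested probes. Probes above 0 on all UV-A arrays and below 0 on all UV-B arrays numbered 6 of 29, against 4.63%. Neither count was tested.

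For 4 names of the gene lists the difference between UV-B and blue light passed limma's test of the difference itself. Of these, 3 were higher and 1 was lower in UV-B, against 8.71% and 9.51% of all 999 Arabidopsis names. Among 10 names for removal of hydrogen peroxide and superoxide 1 was higher, as was 1 of 3 phenylpropanoid and lignin names. Of 14 wall names 1 was higher and 1 lower. The other lists with measured names, of 5, 1, 2, 1 and 4 names, gave 0. As a part of all list names both counts were below the shares over all names, so nothing is read from them. CSD1 differed by 1.499 (log2, limma adjusted p = 0.0349), with UV-B above dark on 3 of 3 arrays and blue light also above dark on 3 of 3. PAL1 differed by 1.33 (log2, limma adjusted p = 0.0349), again with all arrays of both lights above dark. AT5G19730, annotated as a pectinesterase and named after its values were seen, differed by 1.81 (log2, limma adjusted p = 0.0371), with blue light below dark on 3 of 3 arrays and UV-B above dark on 2 of 3. AT5G62360 differed by -2.23 (log2, limma adjusted p = 0.0431), with blue light above dark on 3 of 3 arrays and UV-B below dark on 2 of 3. These calls held in 12, 12, 11 and 9 of 18 alternatives for CSD1, PAL1, AT5G19730 and AT5G62360. Each was lost when UV-A replicate 1, UV-B replicate 3 or blue replicate 2 was left out, and the largest limma adjusted p, without UV-B replicate 3, was 0.112, 0.110, 0.122 and 0.133.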

How the results depend on the processing

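PRXR1 kept a negative median in UV-B, against dark, blue light and UV-A, in all 18 alternatives. Against dark it lay between -2.60 with plain subtraction and -1.90 without UV-B replicate 3. Of the 24 probes called lower against dark, 17 were called in all 17 alternatives other than the strict filter, which tests 24 of the 29 probes. The smallest count, 17, came without UV-B replicate 3. The count called lower than in blue light was 23 and fell to between 14 and 22 with 1 array left out. Since PRXR1 was chosen on its UV-B values, these counts describe only how the calls depend on the processing. The UV-A minus blue median of 0.10 turned to -0.05 with the authors' values and ranged from -0.089 to 0.42 with 1 array left out, and with UV-A replicate 2 left out it was -0.079. With the replicate block, which pairs the arrays, 2 PRXR1 probes were called higher in UV-A against 0 without it, and this block changed no other PRXR1 count by over 1.5 times. Over all probes, 87 were called in blue light, 49 with plain subtraction, 18 with the authors' values, 404 with the replicate block and 0 to 102 with 1 array left out. In UV-A 80 were called, 279 with the replicate block and 0 to 133 with 1 array left out. The counts of 0 came without blue replicate 3, with 299 probes at an unadjusted p under 0.05, and without UV-A replicate 2, with 332. The causes were not tested. Probe 567 had a negative UV-B value in 16 of 18 alternatives and probe 2267 in 13 of 17, and the other 27 in every alternative that tested them. Saturation limits the size of the log ratios of 15 PRXR1 probes, and signal close to background limits the dimmest.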
